A study of Mus musculus with 16 samples.

Results

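Krt6a, Krt6b, Krt16 and Krt17 were followed in dorsal mouse skin as the stress keratins, chosen by symbol as 4 of the 23282 gene rows in each count table, and all 4 were among the 14854 rows that passed the filter on low counts. RNA was measured by QuantSeq, a 3′ mRNA sequencing method that gives about one read per transcript whatever its length, so levels of different genes were compared directly as CPM (counts scaled to 1000000 per library). There were 16 libraries from WT C57BL/6 mice (males of the C57BL/6N substrain per the study's methods), with 4 skin samples in each of 4 groups. Mice were 3 weeks old at purchase, and adapted for 1 week before the diets began. The Cont group ate normal chow. The LowAhR group ate a diet low in ligands of the aryl hydrocarbon receptor (AhR), a ligand-activated transcription factor, for 12 weeks on bedding free of such ligands. The LowAhR+AD group had the same diet and bedding, and after 2 weeks of diet its dorsal skin was painted 2 times a week with 1% DNCB (2,4-dinitrochlorobenzene), a contact sensitizer used to induce dermatitis resembling atopic dermatitis (AD). The LowAhR+AD+BJ group had all of this plus BJIKT (Bojungikgi-tang), a water extract of herbs, by oral gavage at 1 g/kg each day. Both DNCB groups thus ate the low AhR ligand diet, and no group here received DNCB on normal chow. DNCB was applied in acetone and olive oil. The study's methods do not say whether Cont and LowAhR skin received this solvent. Unpainted thus means without DNCB below, and DNCB cannot be told apart from its solvent.

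Keratins form the intermediate filaments of epithelial cells, and each filament pairs a type II with a type I keratin. Krt6a and Krt6b encode 2 forms of the type II keratin K6, and Krt16 and Krt17 encode its type I partners. In resting skin these genes are known mainly from hair follicles, nails and footpads. Keratinocytes between the follicles switch them on after wounding and in inflammatory and hyperproliferative skin disease, which is why they serve as markers of activated epidermis.

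The 4 genes sit in 2 keratin clusters, one for each filament type. In the GENCODE annotation of GRCm38 (mm10), Krt6a lay at chr15:101689910-101694307 with 9 exons and Krt6b at chr15:101676023-101680287 with 9 exons, both on the minus strand. Krt16 lay at chr11:100246091-100248902 and Krt17 at chr11:100256217-100261029, also on the minus strand and with 8 exons each. The coding sequences of Krt6a and Krt6b were 97.6% identical, while their 3′ untranslated regions, nearest to where 3′ reads begin, were 70.5% identical. The last 120 coding bases of both genes, stop codon included, are shown because they make the likeness visible. Capitals mark bases without an identical partner in the alignment of the other gene.
Krt6a: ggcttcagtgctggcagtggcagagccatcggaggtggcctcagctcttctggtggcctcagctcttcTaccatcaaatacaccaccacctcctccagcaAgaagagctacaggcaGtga
Krt6b: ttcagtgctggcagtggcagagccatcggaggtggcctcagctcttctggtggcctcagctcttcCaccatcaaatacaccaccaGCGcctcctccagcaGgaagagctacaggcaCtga
Only 3 of these 120 bases in Krt6a and 6 in Krt6b lacked a partner. Over the last 500 transcript bases, none of the 426 windows of 75 bases (the read length) in Krt6a, Krt6b or Krt17 occurred in another annotated gene. Only exact matches were counted. The 3′ untranslated regions of Krt6a and Krt6b are 557 and 506 bases long, so their windows did not reach the near-identical coding sequence. In Krt16, 33 of 426 windows also occurred in the pseudogene Gm11597, which was not analysed here. How reads with several matches were counted is not given in the sources used here, so the split between Krt6a and Krt6b carries some uncertainty.

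Total counts were 7080508 to 8773876 in the 8 libraries without DNCB and 10614393 to 13467477 in the 8 with it, without overlap. LowAhR+AD replicate 1 stood apart in dropout: 32% of its genes expected at 20 to 40 counts had no count, against 1.03% to 13.7% in the other 15 libraries. The keratins of basal epidermis (Krt5, Krt14) and Krt10 of the suprabasal layers were detected in every library. It is kept in the results below.

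The question of the DNCB comparison was how painted skin on the low AhR ligand diet differed from unpainted skin on the same diet. All 4 stress keratins rose in LowAhR+AD, by 5.21-fold for Krt17, 42.5-fold for Krt6a, 50.7-fold for Krt16 and 340-fold for Krt6b as ratios of mean CPM. By comparison, 12.6% of all tested genes passed the same threshold in this comparison and 6.42% were called higher.

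Krt6a, the more abundant K6 gene, was at 235, 109, 260 and 124 CPM in Cont replicates 1 to 4 and at 320, 77.9, 216 and 600.1 CPM in LowAhR replicates 1 to 4. In LowAhR+AD it was at 14416, 19542, 4080 and 13541 CPM. Every DNCB library thus stood above every unpainted one, the lowest being replicate 3. Its log2 fold change against LowAhR was 5.41 with a standard error (SE) of 0.65 (edgeR quasi-likelihood test, Benjamini-Hochberg adjusted p = 0.000148).

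Krt6b, its near copy, was the lowest of the 4 on average without DNCB. It was at 15.1, 0, 4.19 and 7.18 CPM in Cont, where the count of 0 in replicate 2 allows a level of up to 0.387 CPM, and at 23.5, 15.5, 3.38 and 2.27 CPM in LowAhR. In LowAhR+AD it was at 143, 7205, 4622 and 3228 CPM. Replicate 1 was far below the other DNCB libraries but still 6.06 times the highest LowAhR library. The log2 fold change was 8.41 (SE 1.28, edgeR adjusted p = 0.000773), 8.81 (SE 1.04) without that library and 9.08 without LowAhR replicate 1.

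Krt16, a type I partner of K6, was at 17.8, 8.13, 26.8 and 30.03 CPM in Cont and at 10.9, 4.35, 29.9 and 36.97 CPM in LowAhR. It was at 322, 1672, 1004 and 1165 CPM in LowAhR+AD, where replicate 1 was again the lowest. The groups did not overlap, and the log2 fold change was 5.66 (SE 0.68, edgeR adjusted p = 0.000148).

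Krt17, the other type I partner, was the member with the highest level in unpainted skin and the smallest change. It was at 632, 763, 1084 and 768 CPM in Cont and at 588, 428, 734 and 1095 CPM in LowAhR. In LowAhR+AD it was at 4920, 4556, 1299 and 4050 CPM, so replicate 3 was only 1.19 times the highest LowAhR library. The log2 fold change was 2.38 (SE 0.38, edgeR adjusted p = 0.000967).

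In these 4 against 4 libraries, an exact permutation test of mean log2 CPM (two-sided) gave p = 0.0286 for each member, the smallest p that this design allows. Of all tested genes, 8.92% were higher in LowAhR+AD without overlap. Without LowAhR+AD replicate 1, all 4 members were still called, at log2 fold changes of 5.36 for Krt6a, 8.81 for Krt6b, 5.97 for Krt16 and 2.22 for Krt17. Ranked by log2 fold change among the 14854 tested genes, Krt6b held rank 10, Krt16 rank 60, Krt6a rank 65 and Krt17 rank 385.

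**Figure D1:**
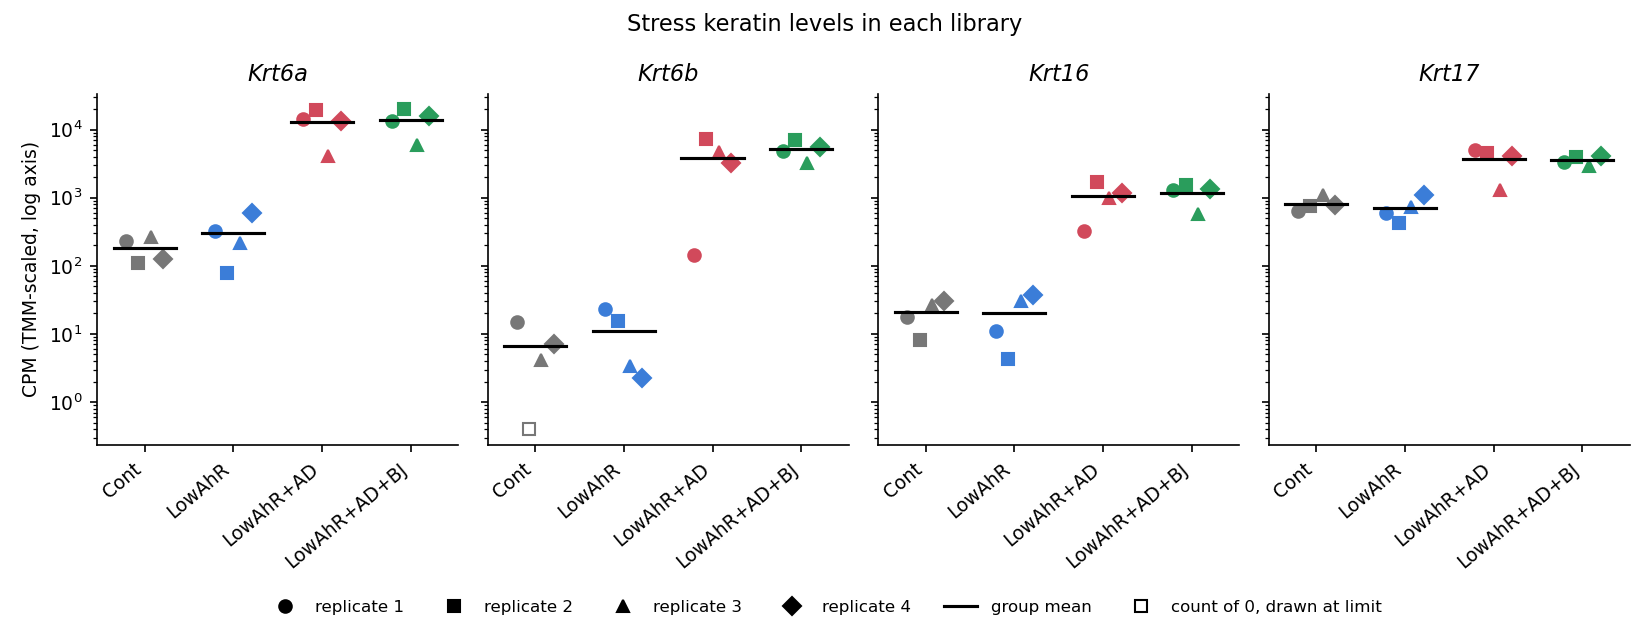
Level of each stress keratin in each library in CPM on a log axis, by group, with replicates 1 to 4 as different symbols and the group mean as a bar. All 8 DNCB libraries lie above all 8 unpainted libraries for each gene, and the open symbol is the count of 0 for Krt6b, drawn at the limit that 3 counts give.

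Against Cont, which differed in diet and bedding as well as in DNCB, the 4 members rose too. The log2 fold changes were 6.15 for Krt6a, 9.16 for Krt6b, 5.65 for Krt16 and 2.19 for Krt17 (edgeR adjusted p from 4.78e-05 to 0.000725), with Krt6b at 9.97 without Cont replicate 1. In this comparison 21.8% of all tested genes were called, 12.3% were called higher and 12.9% were higher without overlap, as all 4 members were. The LowAhR+AD libraries are the same in both comparisons, so the 2 sets of values are not independent.

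The diet comparison asked whether the low AhR ligand diet and its bedding, without DNCB, moved these genes. Diet and bedding cannot be told apart here. No member was called between LowAhR and Cont, and the groups overlapped for each, while 5.68% of all tested genes were higher and 5.63% lower without overlap. The log2 fold change was 0.74 for Krt6a (95% interval -0.40 to 1.88), 0.75 for Krt6b (-1.28 to 2.78), -0.01 for Krt16 (-1.20 to 1.18) and -0.19 for Krt17 (-0.94 to 0.56), with edgeR adjusted p from 0.605 to 0.999. The value of Krt6b was 1.55 without Cont replicate 1, 0.087 without LowAhR replicate 1 and 1.56 by limma voom, and it was called in none of these. The intervals of Krt6a, Krt6b and Krt16 leave room for changes of over 2-fold. In this comparison 0% of tested genes passed edgeR's threshold, 2031 had an unadjusted p under 0.05, and DESeq2 called 491.

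The treatment comparison asked whether BJIKT changed the stress keratins of DNCB-painted skin. No member was called between LowAhR+AD+BJ and LowAhR+AD. Krt6a was at 13253, 19687, 5866 and 15674 CPM in the 4 BJIKT libraries, within a range close to that of LowAhR+AD. Krt6b was at 4763, 7074, 3273 and 5629 CPM, so the group held no library as low as LowAhR+AD replicate 1. Krt16 was at 1316, 1530, 568 and 1333 CPM. The levels of Krt17 were the most even, at 3320, 3901, 2887 and 4109 CPM. The 2 groups overlapped for every member, while 2.42% of all tested genes were higher and 2.65% lower without overlap.

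The mean of Krt6a was 1.06 times that of LowAhR+AD, with a 95% interval of the fitted fold from 0.482 to 2.31. For Krt6b the ratio was 1.36 (0.356 to 5.24), for Krt16 1.14 (0.507 to 2.57) and for Krt17 0.959 (0.571 to 1.61). The log2 fold change of Krt6b, 0.45, was 0.035 without LowAhR+AD replicate 1, 0.95 without LowAhR+AD replicate 2 and 1.34 by limma voom, and it was called in none of these. The edgeR adjusted p ran from 0.902 to 0.972 and the exact permutation p from 0.4 to 0.971. A fall of Krt6a to under 0.482 of its LowAhR+AD level, or of Krt17 to under 0.571, lay outside these intervals, while smaller changes in either direction lay inside. These bounds are those of the main fit. Scaled by library totals, the lower bounds were 0.442 for Krt6a and 0.517 for Krt17. In this comparison 0% of tested genes passed edgeR's threshold, 1405 had an unadjusted p under 0.05, and DESeq2 called 17.

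Against LowAhR, all 4 members rose in the BJIKT group as well. The log2 fold changes were 5.49 for Krt6a, 8.86 for Krt6b, 5.85 for Krt16 and 2.32 for Krt17 (edgeR adjusted p from 0.000356 to 0.00204, and 9.52 for Krt6b without LowAhR replicate 1), with 6.77% of tested genes called, 3.64% called higher and 8.91% higher without overlap, as the members were. This comparison shares its LowAhR libraries with the DNCB comparison. In mean CPM, Krt6a, Krt6b and Krt16 were highest with BJIKT and Krt17 in LowAhR+AD, but the DNCB groups were not told apart for any member, nor were the unpainted groups.

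**Figure D2:**
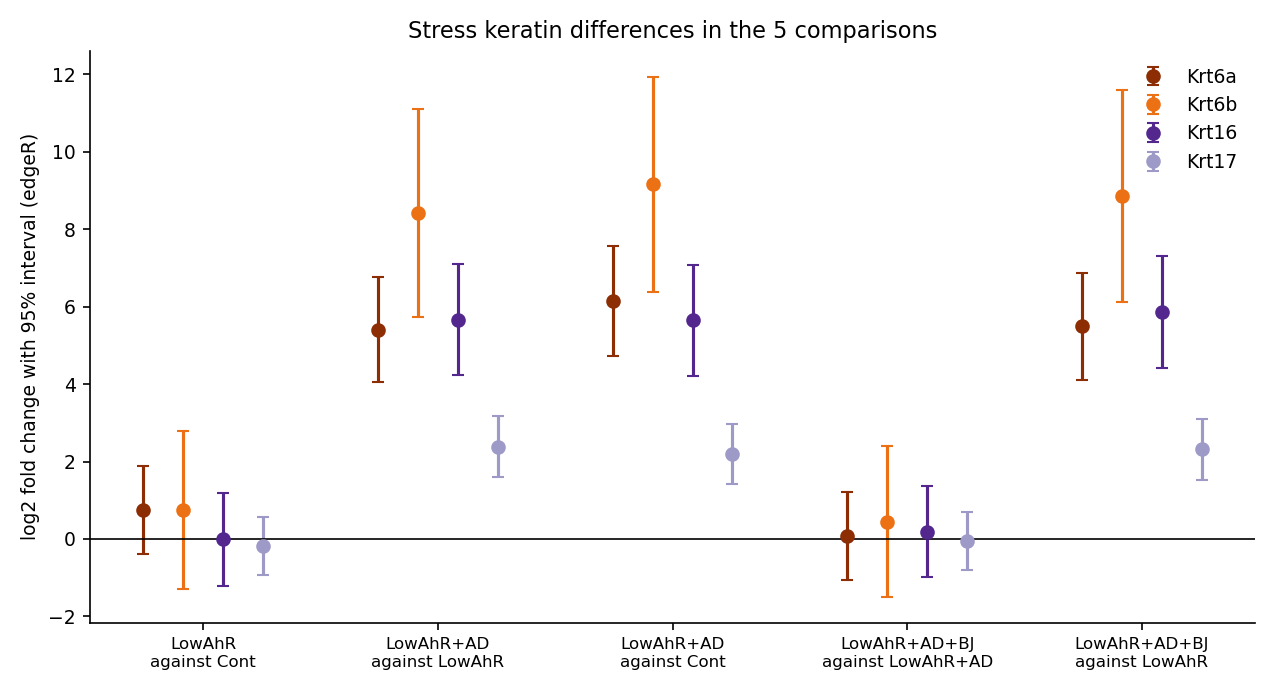
Log2 fold change of each stress keratin in the 5 comparisons, with 95% intervals from edgeR. The 3 comparisons with DNCB in 1 arm lie above 0 for all 4 genes, and the intervals of the diet and BJIKT comparisons include 0.

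The make-up of the stress keratin pool changed along with its size. Within a library these shares do not depend on scaling. Krt17 held 62.3% to 86.7% of the stress keratin counts in the 8 unpainted libraries and 11.8% to 24.8% in the 8 DNCB libraries. Krt6a held 12.4% to 34.6% without DNCB and 37.1% to 72.8% with it. The ratio of type II (Krt6a and Krt6b) to type I (Krt16 and Krt17) counts was 0.141 to 0.575 without DNCB and 2.65 to 4.93 with it, again without overlap. These ratios were not tested.

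Within the DNCB groups the 2 K6 genes did not keep one ratio. Krt6b was 0.980% of the Krt6a and Krt6b counts in LowAhR+AD replicate 1, which lies within the 0% to 16.6% of unpainted skin, and 26.9%, 53.1% and 19.3% in replicates 2 to 4. In the BJIKT libraries it was 26.4%, 26.4%, 35.8% and 26.4%. In LowAhR+AD replicate 3, Krt6b at 4622 CPM exceeded Krt6a at 4080 CPM, the one library of 16 where it did. Krt16 was 1.01% to 3.92% of the Krt16 and Krt17 counts in unpainted skin and 6.14% to 43.6% with DNCB, with the same LowAhR+AD replicates at the ends.

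**Figure D3:**
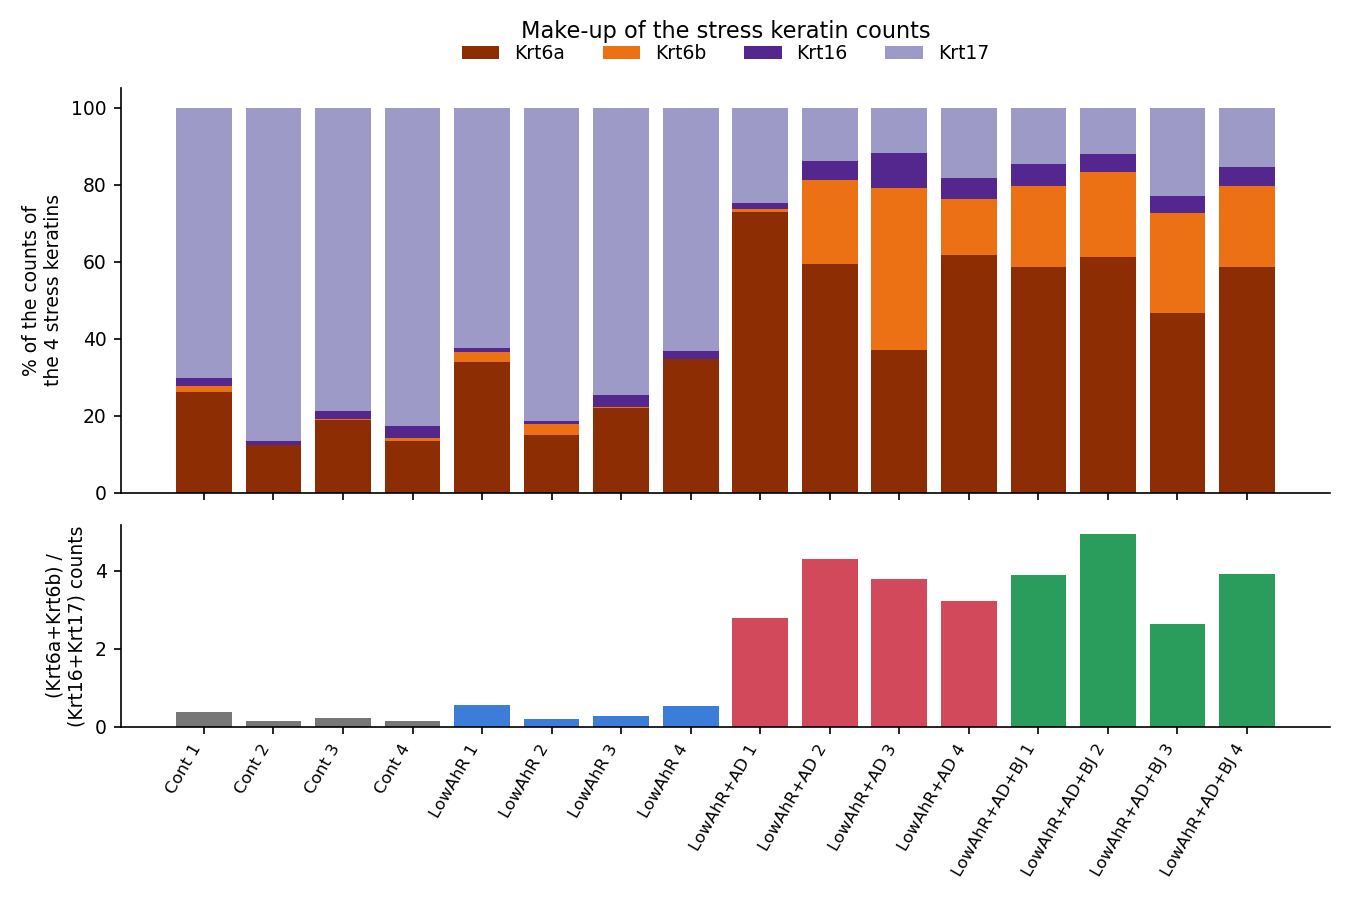
Share of each gene in the stress keratin counts of each library (upper panel, percent) and the ratio of type II to type I counts (lower panel). Krt17 holds 62.3% or more of the counts in each unpainted library and 24.8% or less in each DNCB library.

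Among all keratins, 3 of the 4 members moved up in rank with DNCB. Krt6a ranked 8 by mean CPM among the 52 keratin genes in Cont and 11 in LowAhR, and ranked 1 in both DNCB groups. Krt6b moved from rank 30 in LowAhR to rank 3, Krt16 from 27 to 12, and Krt17 stayed near its place at 6 and 5. The 4 genes held 7.04% to 15.8% of keratin counts without DNCB and 26.0% to 64.1% with it. As a share of all counts they rose from 0.0513% to 0.166% without DNCB to 1.05% to 3.22% with it. Of the other 42 tested keratins, 5 rose and 2 fell in LowAhR+AD against LowAhR, with a median log2 fold change of 1.78 against 0.04 for all tested genes. The 5 were Krt5, Krt14, Krt32, Krt42 and Krt75, of which Krt42 was named after its values were seen. Krt42 lost its call in 4 and Krt32 in 3 of the 16 fits with 1 library left out. Against LowAhR, Krt6b, Krt16 and Krt6a had the 3 largest log2 fold changes of all 46 tested keratins. Against Cont, Krt6b ranked 1 among them, Krt6a 17, Krt16 19 and Krt17 30. In that comparison 26 of the other 42 keratins rose and 2 fell, with a median log2 fold change of 4.38. Of all tested genes 12.3% were called higher there.

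Basal keratins were read as a rough scale for the amount of keratinocyte RNA, though they did not move alike. Krt14, the type I keratin of the basal layer, rose from 890 ± 140 to 3527 ± 443 CPM (SD, n = 4; log2 fold change 1.99, SE 0.27, edgeR adjusted p = 0.000301). Krt5, its type II partner, rose by 1.39 on the log2 scale (edgeR adjusted p = 0.0148), while Krt15 did not pass (-0.56, edgeR adjusted p = 0.233). LowAhR+AD replicate 1 held the highest Krt5 level, 6181 CPM in a group mean of 2982, and leaving it out gave Krt5 a log2 fold change of 0.75 (edgeR adjusted p = 0.0313). With only the 8 libraries compared, Krt5 did not pass (edgeR adjusted p = 0.0860). Per count of Krt14, the 4 stress keratins together gave 0.656 to 1.69 counts without DNCB and 3.37 to 9.98 with it. Per Krt14 count, Krt17 did not follow. It gave 0.534 to 1.28 counts in unpainted skin and 0.398 to 1.47 in DNCB skin, so that the ranges overlapped. Krt6a gave 0.0973 to 0.585 and 1.25 to 5.92, without overlap. Per count of Krt5, which rose less than Krt14, the 4 together gave 0.518 to 1.41 without DNCB and 3.20 to 18.3 with it. Values of Krt17 alone per Krt5 count were not computed, so its overlap was seen per Krt14 count only. In bulk tissue, more cells of a type and more RNA per cell cannot be told apart.

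Of 6 suprabasal keratins, which mark differentiating epidermis, Krt77 and Krt2 were lower in LowAhR+AD, where 6.21% of all tested genes were called lower. Krt77 fell by 6.41 on the log2 scale and Krt2 fell by 4.41 (edgeR adjusted p = 0.00230 and 0.0299). The mean of Krt77 was 14.49 CPM in LowAhR and 0.158 CPM in LowAhR+AD, where its highest level was 0.388 CPM. The limits from 3 counts in LowAhR+AD were 0.229 to 0.246 CPM. The direction for Krt77 can thus be read, but the size of its fall cannot, here or with a library left out. Krt2 was at 0.358 to 58.71 CPM in LowAhR and 0 to 2.21 CPM in LowAhR+AD, so the groups overlapped. The other 4 did not pass. Of the 6, only Krt1 had a positive log2 fold change, 1.07 (edgeR adjusted p = 0.488). It was at 254 to 674 CPM in LowAhR and 126 to 3493 CPM in LowAhR+AD. Krt2 lost its call without LowAhR replicate 2, where its log2 fold change was -2.15, and without LowAhR+AD replicates 1, 3 or 4 (edgeR adjusted p from 0.0529 to 0.245), as well as by limma voom and with only the 8 libraries compared. It was -5.62 without LowAhR+AD replicate 2, and Krt77 was -7.29 without LowAhR+AD replicate 3. Krt10 was at 20.2 to 4019 CPM in the 4 LowAhR+AD libraries, against 1853 to 3000 CPM in LowAhR. The summed suprabasal level was highest of all libraries in LowAhR+AD replicate 3, at 7590 CPM. That library also had the lowest summed stress keratin level of the DNCB libraries, at 11004 CPM. In LowAhR+AD+BJ replicates 1 to 4 the suprabasal sums were 70.1, 1622, 1568 and 2568 CPM. The stress keratin sums there were 22652, 32193, 12594 and 26745 CPM. A relation between the 2 sums was not tested.

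Some stress keratins are also made in the hair follicle, so genes of its layers were read beside them. Of 8 outer root sheath and bulge genes, 3 rose and 3 fell in LowAhR+AD against LowAhR. Of all tested genes, 6.21% were called lower in this comparison. Of 9 tested genes of the companion layer and inner root sheath, Krt75 rose in LowAhR+AD against LowAhR (log2 fold change 2.14, edgeR adjusted p = 0.00932, and 3.09 without LowAhR replicate 4), and 8 did not pass. Of 13 hair shaft keratins, Krt32 rose (2.38, edgeR adjusted p = 0.0239, and 3.54 without LowAhR replicate 4), and 12 did not pass. Of all tested genes 6.42% were called higher. Against Cont, where 12.3% were, 9 companion layer or inner root sheath genes and 12 hair shaft keratins rose. Against LowAhR, 8 of 9 companion layer and inner root sheath genes had a positive log2 fold change, with a median of 1.71. For the hair shaft keratins these were 13 of 13 and 2.35. The numbers called depended on the test. Limma voom called 5 and 9 genes higher against LowAhR, and a fit of only the 8 libraries compared called 0 and 0. Without LowAhR replicate 4, which had the highest hair keratin levels of the unpainted libraries, 7 hair shaft and 2 companion layer or inner root sheath genes were called against LowAhR. The hair shaft count was 2 without Cont replicate 1, 3 without LowAhR+AD replicate 1, and 0 without LowAhR replicate 1, LowAhR replicate 3 or LowAhR+AD replicate 2. The summed companion layer and inner root sheath level was 26.8 to 917 CPM in Cont, 120 to 8368 in LowAhR, 6046 to 20090 in LowAhR+AD and 5666 to 15806 in LowAhR+AD+BJ. LowAhR replicate 4 held the 8368 CPM, so painted and unpainted libraries overlapped on this sum. The part of hair follicle content in the stress keratin values was not tested.

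**Figure D4:**
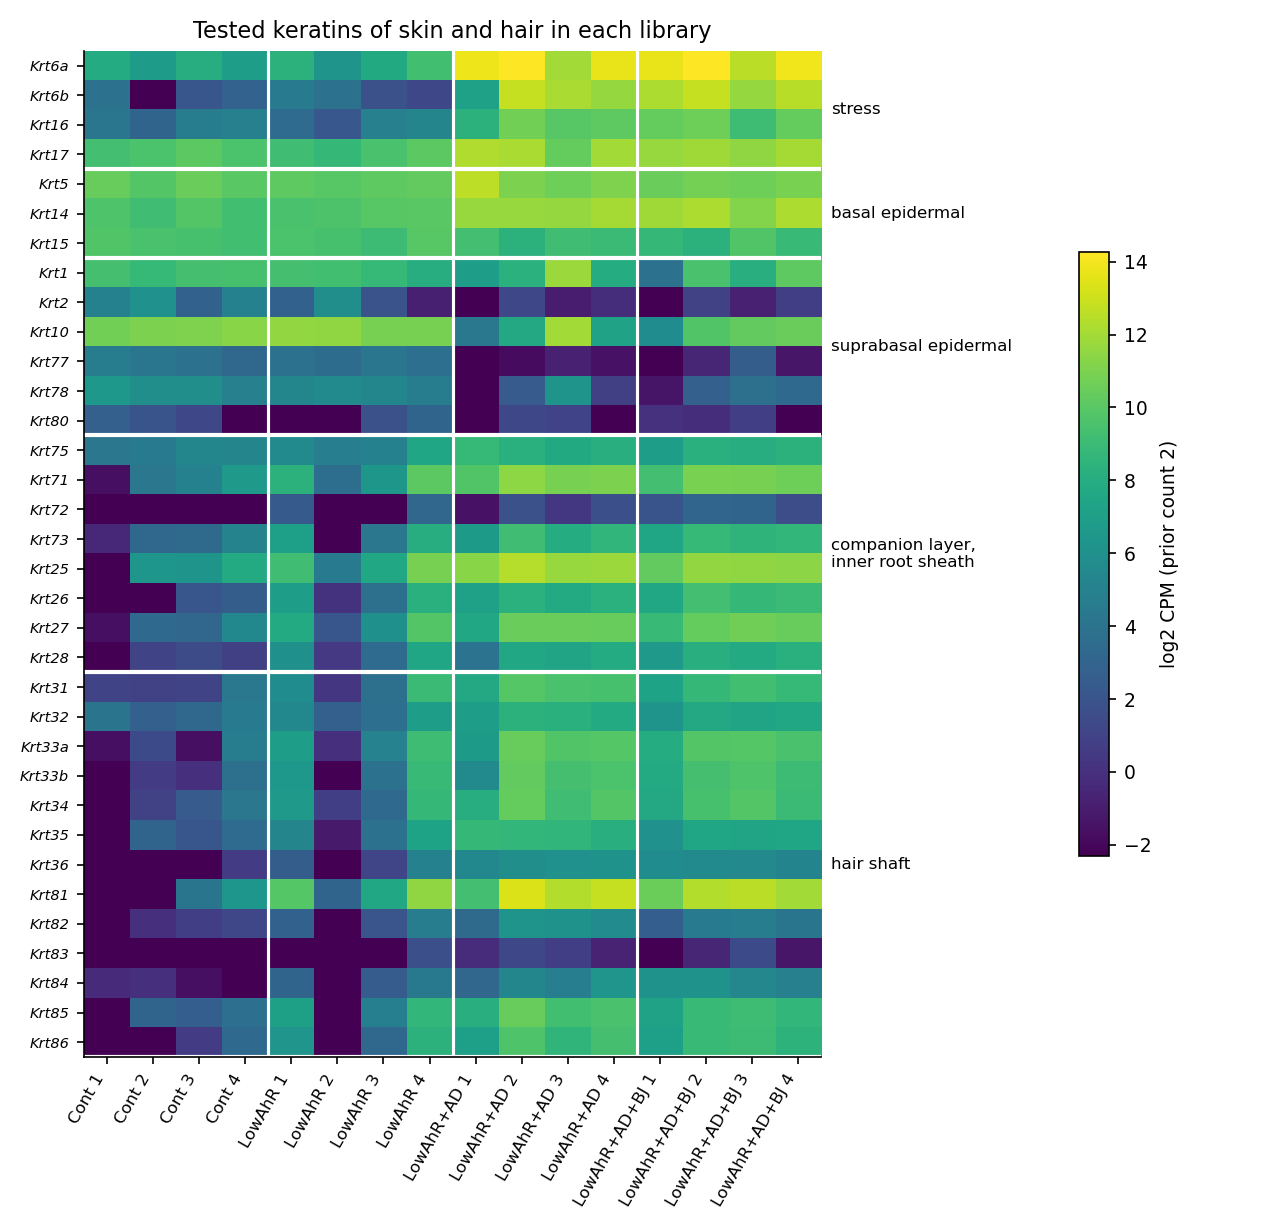
Log2 CPM (prior count 2) of the tested skin and hair keratins in each library, grouped by where they are made. The stress keratins are bright in all DNCB columns except Krt6b in LowAhR+AD replicate 1. Most hair keratins are bright in DNCB columns and in LowAhR replicate 4, while Krt72 and Krt83 had means of 5.66 CPM or less in both DNCB groups. The summed hair shaft level was also 1655 CPM in LowAhR replicate 1, against 2291 CPM in LowAhR+AD replicate 1.

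**Figure D5:**
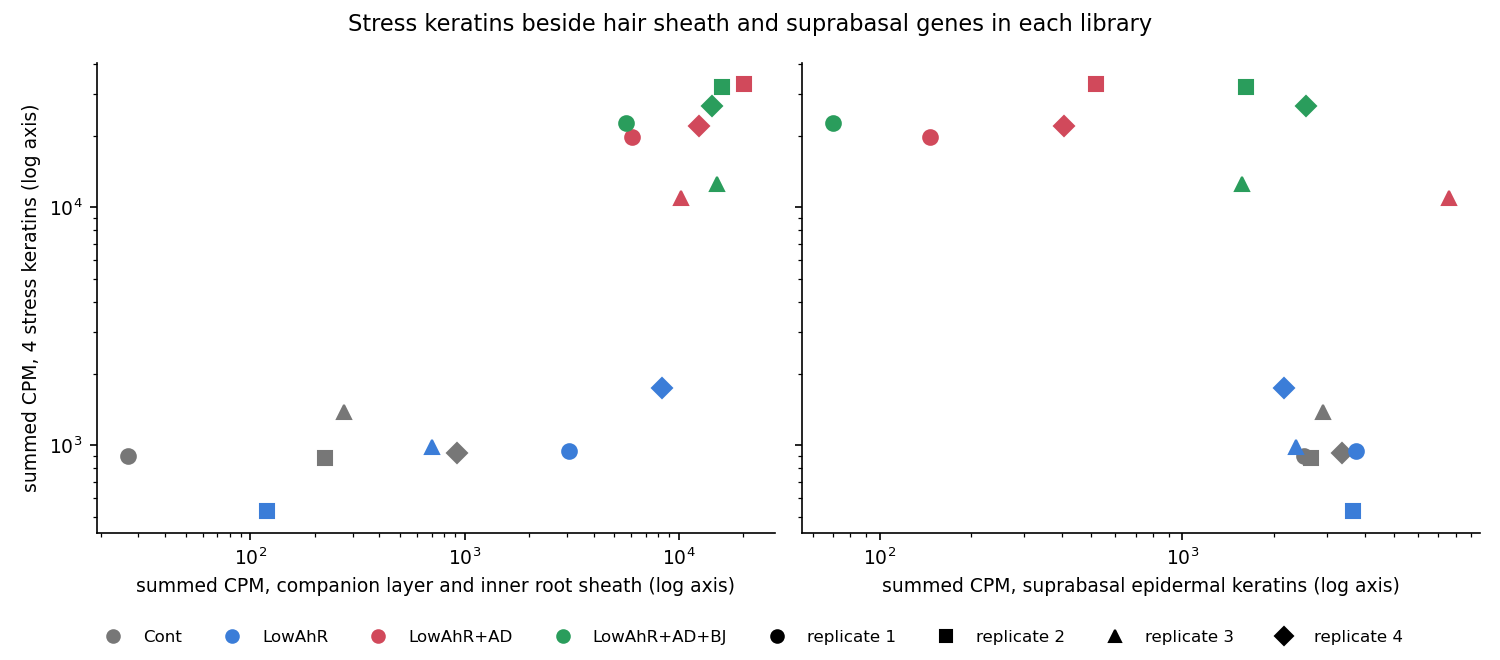
Summed CPM of the 4 stress keratins against summed CPM of the companion layer and inner root sheath genes (left) and of the suprabasal keratins (right), one point per library, on log axes. On the hair sheath axis the unpainted libraries reach 8368 CPM and the DNCB libraries begin at 5666 CPM, while on the stress keratin axis the DNCB libraries begin at 11004 CPM.

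Among ligands and receptors that can act on keratinocytes upstream of these keratins, most did not pass. Of 9 tested ligands and receptors of the EGF receptor family, 2 rose, 2 fell and 5 did not pass, where 6.42% of all tested genes were called higher and 6.21% lower. Epgn rose from 7.57 to 145 CPM (log2 fold change 4.26) and Hbegf from 9.53 to 51.0 CPM (2.42), while among the other ligands Btc fell by 3.25 and Ereg fell by 1.55 on the same scale. Of 20 tested cytokine genes, Il1b and Il24 rose and the receptor genes Il20ra, Il22ra1 and Il20rb fell, and 15 did not pass. By limma voom no cytokine gene was called higher. Il24 had no count in any Cont or LowAhR library, which allows up to 0.406 CPM in each, and was at 1.32 to 40.7 CPM in LowAhR+AD. Il17a, Il17f and Il22, known inducers of these keratins, had no count in any of the 16 libraries and were not detectable at this depth. With 1 library left out, Ereg lost its call without LowAhR replicates 1 or 2 or LowAhR+AD replicates 1, 2 or 4, and Il1b without LowAhR replicates 1, 2 or 4 or LowAhR+AD replicate 4. Il22ra1 lost its call without LowAhR replicate 1 or LowAhR+AD replicate 2. Epgn was 5.13 without LowAhR replicate 3 and 3.61 without LowAhR+AD replicate 2, and Btc was -4.27 by limma voom.

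Of 28 transcription factors linked to activated keratinocytes, 3 rose, 3 fell and 22 did not pass, where 6.42% of all tested genes were called higher and 6.21% lower. The median log2 fold change was 0.020 over this list and 0.04 over all tested genes. Fosl1, a subunit of AP-1, rose by 4.39 on the log2 scale from 0.580 CPM, and Gli1 and Cebpb by 1.09 and 1.04. Klf4 fell by 0.90, Klf6 fell by 1.23 and Cebpd fell by 1.27. A fit of only the 8 libraries compared called 1 factor higher and 0 lower, and limma voom called 1 higher. With 1 library left out, Cebpb lost its call in 9 of 16 fits (0.54 without LowAhR+AD replicate 1), Gli1 in 7, Klf4 in 3, Fosl1 in 2 and Cebpd in 1, while Fosl1 was 6.07 without LowAhR replicate 4. Of 13 proteins that bind or anchor keratin filaments, 5 rose and none fell: the desmosomal Dsg3 (2.59), Pkp3 (1.14), Jup (1.03) and Pkp1 (0.90), and Sfn (1.65), a 14-3-3 protein. Of 22 cell cycle genes 13 rose and none fell, with a median log2 fold change of 1.34 over the list. With only the 8 libraries compared, 3 filament-binding and 7 cell cycle genes rose. In the BJIKT comparison none of these genes was called by edgeR. These counts were smaller without some libraries: the cell cycle count was 6 without LowAhR replicate 1, 8 without LowAhR replicate 2 and 7 without LowAhR+AD replicate 2, and the count of factors that rose was 0 without LowAhR replicates 1 or 3 and 1 without LowAhR replicate 2 or Cont replicate 3. Without LowAhR replicate 4, 5 factors fell, and without LowAhR+AD replicate 1, 2 filament-binding genes fell.

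Markers of other cells in the samples were read against the same shares of all tested genes, 6.42% called higher and 6.21% lower. Of 7 tested neutrophil genes 4 rose, led by S100a9 and S100a8, which activated keratinocytes make too, and their sum was 83.9 to 128 CPM in LowAhR and 150 to 2486 CPM in LowAhR+AD, with Ngp at 0 in LowAhR. All 10 skeletal muscle genes and 6 of 8 adipocyte genes fell, with sums of 9105 to 21817 and 7357 to 11034 CPM in LowAhR against 444 to 3782 and 436 to 3202 CPM in LowAhR+AD. Of 9 sebaceous gland genes 3 fell, of 7 T cell genes 2, of 6 fibroblast genes 2, and of 5 melanocyte genes 1 rose. The summed T cell level went the other way, at 98.6 to 204.4 CPM in LowAhR and 203.8 to 302.8 CPM in LowAhR+AD. Of 8 outer root sheath and bulge genes 3 rose, Sox9 among them, and 3 fell. No macrophage gene (of 8) or simple epithelial keratin (of 7) was called. With only the 8 libraries compared, 2 neutrophil genes and 1 outer root sheath or bulge gene rose, and 6 muscle and 0 fibroblast genes fell. By limma voom 2 neutrophil genes, 2 melanocyte genes and 1 simple epithelial keratin rose, and by DESeq2 4 fibroblast genes fell. With 1 library left out, 2 neutrophil genes were called without LowAhR replicates 1 or 2 or LowAhR+AD replicate 4, 6 muscle genes without LowAhR replicate 3 or LowAhR+AD replicate 2, and 1 outer root sheath or bulge gene was called higher without LowAhR+AD replicate 1. The fibroblast count was 0 or 1 without LowAhR replicates 2 or 3 or LowAhR+AD replicates 2 or 4, and the melanocyte count was 0 without LowAhR replicates 1, 2 or 3 and 2 without LowAhR replicate 4 or Cont replicates 1 or 2. One sebaceous gene was called higher without LowAhR replicate 3 or LowAhR+AD+BJ replicate 3. The part of these shifts in the stress keratin values was not tested.

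Of 9383 genes with a mean of at least 10 CPM, those whose log2 CPM followed the mean of the 4 members most closely over the 16 libraries were Sprr1b (r = 0.977), BC117090 (0.974), Krt14 (0.972), Pi15 (0.963) and Degs2 (0.962). Sprr1b, a cornified envelope precursor, was at 14.8 ± 4.30 CPM in LowAhR, 297 ± 174 in LowAhR+AD and 391 ± 156 in LowAhR+AD+BJ (SD, n = 4). These correlations describe points that share groups and depth, and carry no test.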

How the data were processed

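The authors deposited a table of raw read counts per gene for each library. They sequenced QuantSeq 3′ libraries as 75-base single reads, and the submitters' processing notes name Bowtie2, bedtools and mm10, with versions and settings not given in the sources used here. The deposited counts were used as they stand, and groups and replicates were taken from the sample titles. CPM values were scaled with TMM factors. Genes were filtered with filterByExpr (minimum count 10, minimum total 15), and all 16 libraries were fitted in one model of group means with the quasi-likelihood test of edgeR 4.0.16 in R 4.3.3, with Benjamini-Hochberg adjustment over 14854 genes and a threshold of 0.05. Log2 CPM used a prior count of 2. Alternatives used limma 3.58.1 and DESeq2 1.42.0, among others, and 20 exact permutation tests were made with SciPy 1.17.1 and not adjusted. The scripts were tested on simulated data. Named genes were the members, the called extremes of each list (at most 4) and the 5 genes most alike by each measure, of which one is not reported here. The members and lists were chosen with earlier results of these data known. Replicates of a group differed by far more than sampling noise (chi-square per degree of freedom 16.9 to 300). Each library came from one skin sample, and p-values measure the spread between these samples. Alternatives to the scaling of the overlap counts were chosen after seeing the data. Limits from counts cover counting error only, while the intervals from edgeR also include the spread between these samples. A planned search of promoter motifs was not run, since the promoter table held no entry for the 4 genes.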

Additional observations from a re-analysis of the deposited data

Results flagged for a closer look

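Of 40 groups of 4 libraries examined for a library far from the other 3, 3 were flagged, where chance flags about 1 in 20. Krt6b made up 35.8% of the Krt6a and Krt6b counts in LowAhR+AD+BJ replicate 3, while the other 3 libraries of that group lay at 26.4%. The 4 stress keratins took 0.144% of all counts in Cont replicate 3, against 0.0906% to 0.0991% in the other 3. Per count of Krt14, they gave 1.09 counts in Cont replicate 1, against 1.48 to 1.54 in the other 3.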

How the results depend on the processing

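In the 3 comparisons with DNCB in 1 arm, all 4 members kept their direction and their call under all 25 alternatives: other scalings, no low-count filter, DESeq2, limma voom, only the 8 libraries compared, a replicate block and each library left out in turn. Scaling by library totals moved the median log2 fold change of all tested genes from 0.038 to 0.108 in LowAhR+AD against LowAhR. It moved most in LowAhR against Cont, from 0.026 to -0.084.

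Signs changed where no member was called. For BJIKT against LowAhR+AD, Krt6a was -0.056 by library totals and Krt17 0.10 by limma voom. Leaving out 1 library gave -0.22 to 0.35 for Krt6a, -0.12 to 0.51 for Krt16 and -0.34 to 0.10 for Krt17, and for LowAhR against Cont -0.46 to 0.33 for Krt16. The replicate numbers do not pair the samples: deviations of same-numbered libraries correlated at -0.055 to 0.167, and 5 of 16 libraries correlated best with their own number. With the number as a block, Krt6a was 5.43 in LowAhR+AD against LowAhR, and 1689 genes were called in place of 1876.

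In LowAhR+AD against LowAhR, 30 other called genes that the text names kept their direction under these alternatives. Of them, 12 lost their call with only the 8 libraries compared, 6 by limma voom, 3 with the block and 0 by DESeq2, and 0 to 9 with 1 library left out.

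Over the gene lists (members excluded), 37 genes rose and 36 fell in LowAhR+AD against LowAhR. With only the 8 libraries compared these were 20 and 22, and with 1 library left out 21 to 41 and 27 to 35. For LowAhR against Cont, where edgeR called 0, DESeq2 called 17 higher and 7 lower, the 8 libraries alone 11 and 1, and leaving 1 out gave 0 to 14 and 0 to 3. For LowAhR+AD+BJ against LowAhR, 27 rose and 17 fell. DESeq2 called 31 lower, and leaving 1 out gave 13 to 36 and 7 to 29. The mean log2 ratio of Krt6a to Krt6b in Cont was 4.67 over the 3 libraries with both, and 5.92 with 1 count added to each side.

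Over all genes, LowAhR+AD against LowAhR gave 1876 calls, 765 with only the 8 libraries and as few as 1128 without LowAhR replicate 2. LowAhR+AD+BJ against LowAhR gave 1005, 1676 by DESeq2, and 414 to 1716 with 1 library left out. LowAhR against Cont gave 0, and 475 without LowAhR+AD replicate 1. The causes were not tested. Differences in genes below the limits of 0.229 to 0.406 CPM (3 counts) cannot be read at this depth.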

Other observations

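With each group's mean subtracted, the members did not all vary together. Krt6a and Krt17 deviated in step over the 16 libraries (r = 0.808), Krt6a and Krt16 less so (0.564), and Krt6a and Krt6b hardly at all (-0.003). Among the genes whose deviations were most like the mean of the 4 members were Xrcc5 (0.898), Gtf2e2 (0.837), Csnk2a1 (0.833) and Hells (0.823), of 9383 compared. These values describe 16 libraries and carry no test.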
